A study of Mus musculus with 2 samples.

Results

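The proteasome genes of the mouse were followed through single-cell RNA sequencing of EO771-HEVM3 breast tumours and of the paired lymph nodes (LNs). Members were every listed gene with a symbol of the form Psma, Psmb, Psmc, Psmd, Psme, Psmf or Psmg plus a number, with or without the ending ip, and with at least 100 unique molecular identifiers (UMIs, each 1 counted RNA molecule) summed over both libraries. The pattern matched 49 of the 22620 listed genes, and 47 reached the minimum. Psmb11, the thymus-specific subunit, had 5 UMIs and Psma8, known from the testis, had 7, and both fell out. Psmc3ip matches the name pattern but is a recombination factor and not a subunit. Psme2b, a near-identical copy of Psme2, does not match the pattern. How reads were split between this pair is not known, so levels of Psme2 are uncertain.

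One library was made from primary tumours and 1 from paired LNs, each pooled from 6 C57BL/6J mice bearing EO771-HEVM3 tumours (female mice, obtained at 5 to 6 weeks of age), with no map from cells to mice. EO771 is a mouse mammary carcinoma line, and HEVM3 is a derivative obtained by repeated selection in mice of cells that were photoconverted in the LN and then recovered from lung metastases, taken to have left the LN through high endothelial venules (HEVs). Tumours and LNs were dissociated with different enzymes for different times, so that site, library and digestion cannot be told apart. Both libraries come from mice with the same derivative, and tumour-free mice were not part of them.

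The proteasome is the protease that degrades ubiquitin-tagged proteins. Its 20S core is built from an outer alpha ring and an inner beta ring on each side, and the 19S cap unfolds substrates with its ATPases. In the constitutive core the active sites are beta1 (Psmb6), beta2 (Psmb7) and beta5 (Psmb5). Interferon-gamma induces beta1i (Psmb9), beta2i (Psmb10) and beta5i (Psmb8), which take their places in newly built immunoproteasomes, and also PA28 alpha and beta (Psme1 and Psme2), which cap the core without ATP. Immunoproteasomes change which peptides are cut for loading on MHC class I molecules, and dendritic cells are known to carry them without stimulation.

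The deposited matrices held 12427 cells with 173317475 UMIs for the primary tumour and 11617 cells with 122207852 UMIs for the LN. Limits on genes and mitochondrial UMIs, followed by a doublet caller, left 8756 and 9689 cells. The libraries shared 47 cell barcodes, 0.378% of the tumour's and 0.405% of the LN's. Clusters were named from fixed markers, and the cells named cancer-like (6120 of the tumour and 606 of the LN, called cancer cells here) had UMIs of 8 of 8 epithelial markers in each library, summing to 4548 CPM (UMIs of a gene per 1000000 UMIs of the class) in the tumour and 5240 CPM in the LN. Median depth was 14066 UMIs in tumour cancer cells and 35080 in LN cancer cells. The limit of 6000 detected genes bore more on the cancer cells of the LN, of which there were 1310 without it, than on those of the tumour, with 6745. With 1 library per site no test between sites was possible. All intervals are exact 95% intervals that cover counting error only, not the spread between mice. Each level is a sum over a class and not a mean of its cells. The UMIs count transcript ends and were not divided by gene length.

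The 6 genes of the exchangeable active sites lie on 5 chromosomes. In GRCm38 (GENCODE M21), Psmb8 (ENSMUSG00000024338) spans chr17:34197721-34201454 on the plus strand and Psmb9 (ENSMUSG00000096727) spans chr17:34181987-34187764 on the minus strand, on either side of Tap1 in the MHC region. Psmb10 (ENSMUSG00000031897) lies at chr8:105935735-105938444, Psmb5 (ENSMUSG00000022193) at chr14:54614119-54618022, Psmb6 (ENSMUSG00000018286) at chr11:70525367-70527858 and Psmb7 (ENSMUSG00000026750) at chr2:38588036-38644087. Psmb9 and Tap1 are transcribed away from each other from start sites with 225 bases between them in RefSeq (chr17:34187330 and chr17:34187556), and the annotated 5′ ends of these genes overlap on opposite strands. Of the 47 members, 3 (Psma2, Psmd1 and Psmg3) are overlapped on the same strand by another listed gene, so their counts may hold reads of it.

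Short motifs were looked up on both strands in RefSeq promoter windows (GRCm38.p6, 250 bases before to 50 after the start site), which matched 40 of the 47 members. In cancer cells Psmb8 and Psme1 were lower in the LN and Psmb5 and Psmb6 were higher. The 4 sites below are matches in these genes, and genes of that comparison without a match are not shown. Each is 30 bases, 5′ to 3′ on the gene's own strand, with the match in capitals.
Psmb8, interferon-gamma activated site core, chr17:34198088-34198117: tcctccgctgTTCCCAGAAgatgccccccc
Psme1, interferon-stimulated response element core, chr14:55578493-55578522: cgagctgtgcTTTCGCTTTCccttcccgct
Psmb5, antioxidant response element core, chr14:54618023-54618052: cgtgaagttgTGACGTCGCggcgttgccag
Psmb6, antioxidant response element core, chr11:70525338-70525367: ctaaagagagTGACGGAGCgctttacgacg
The match in Psmb8 begins 97 bases before the start site, that in Psmb5 47 bases before and that in Psmb6 9 bases before, while that in Psme1 begins at base 10 of the transcript. The activated site core TTCNNNGAA was found in 3 of the 40 members (7.5%, Psmb8, Psmd2 and Psmg1) and in 8.30% of all 32851 windows. The response element core, 2 copies of GAAA with 2 bases of any kind between them, was found in 5 (12.5%) against 3.44% of all windows, in Psmb3, Psmd4, Psmd9, Psme1 and Psmg4. The antioxidant core TGACNNNGC was found in 6 (15%) against 12.4%. The windows of Psmb9, Psmb10, Psme2 and Tap1 held none of the 3 cores. Psmb7 was not among the members with a match either. These matches are descriptions of letters, and the binding of any factor was not measured.

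In cancer cells the 3 immunoproteasome genes were lower in the LN than in the primary tumour, and their 3 constitutive partners were higher. Psmb8 (beta5i) stood at 202 CPM in tumour cancer cells (19643 UMIs, interval 199 to 205) and at 72.7 CPM in LN cancer cells (1479 UMIs, 69.1 to 76.5). Psmb9 (beta1i) stood at 122 CPM (11896 UMIs, 120.2 to 124.6) in the tumour and at 19.9 CPM (405 UMIs, 18.02 to 21.95) in the LN. Psmb10 (beta2i) stood at 98.3 CPM (9554 UMIs, 96.3 to 100.3) and at 27.5 CPM (560 UMIs, 25.3 to 29.9). None of these pairs of intervals overlapped. The levels were 2.78-fold lower in the LN for Psmb8, 6.14-fold for Psmb9 and 3.57-fold for Psmb10, or -1.47, -2.62 and -1.83 on the log2 scale. In cells with 10000 to 30000 UMIs (3456 of the tumour and 176 of the LN) these log2 ratios were -0.62, -1.91 and -1.49, so that Psmb8 was under 2-fold lower there. Without the limit on detected genes they were -1.93, -3.15 and -2.34.

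The constitutive partners moved the other way and by less. Psmb5 (beta5) rose from 159 CPM (156.6 to 161.7) in the tumour to 246 CPM (239.6 to 253.3) in the LN. Psmb6 (beta1) stood at 188 CPM (185.1 to 190.6) and 246 CPM (239.2 to 252.8), and Psmb7 (beta2) at 141 CPM (138.7 to 143.4) and 166 CPM (160.8 to 172.1). On the log2 scale their ratios, LN over tumour, were 0.63, 0.39 and 0.24. The intervals of each pair of levels lay apart.

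**Figure D1:**
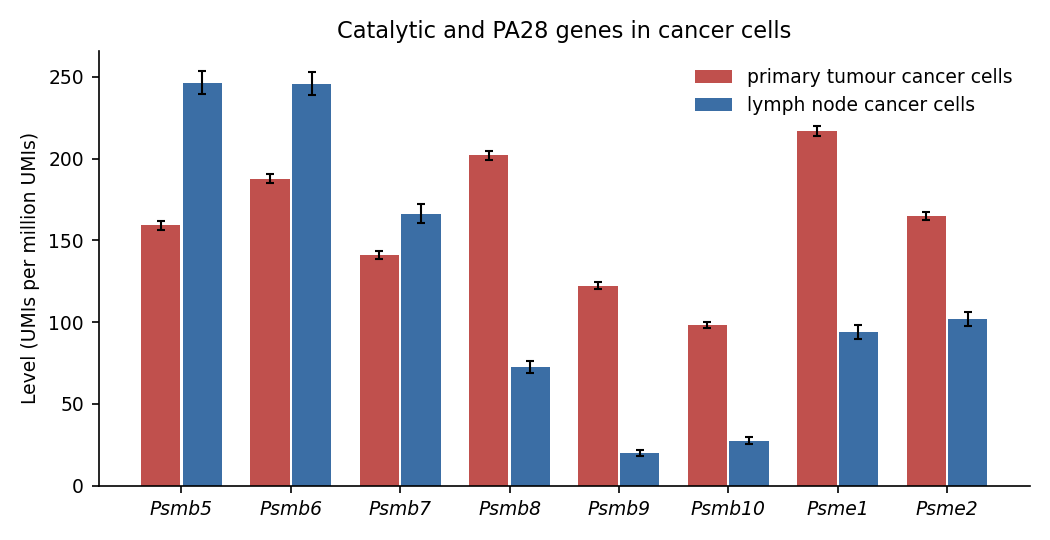
Level in CPM (vertical axis) of 3 constitutive catalytic genes, 3 immunoproteasome genes and the 2 PA28 genes in cancer cells of the primary tumour (6120 cells, red) and the LN (606 cells, blue). Bars are summed levels of 1 library each and black lines are exact 95% Poisson intervals; the 3 genes Psmb5, Psmb6 and Psmb7 are higher in the LN and the other 5 are lower.

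The immunoproteasome share, defined as the UMIs of Psmb8, Psmb9 and Psmb10 as a percentage of the UMIs of Psmb5 to Psmb10, combines these values. It was 46.4% in tumour cancer cells (41093 immunoproteasome and 47430 constitutive UMIs, Clopper-Pearson interval 46.1 to 46.8) and 15.4% in LN cancer cells (2444 and 13397 UMIs, 14.9 to 16). Taken pair by pair, Psmb8 made up 55.9% of Psmb8 and Psmb5 in the tumour and 22.8% in the LN. Psmb9 made up 39.5% of Psmb9 and Psmb6 in the tumour and 7.49% in the LN. Psmb10 made up 41.1% of Psmb10 and Psmb7 in the tumour and 14.2% in the LN. The 3 pairs were shifted in 1 direction, and the beta1 pair was the most one-sided of them in the LN.

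The difference was seen in single cells too. Among cells with at least 10 UMIs of the 6 genes (2970 of the tumour and 564 of the LN), the median share per cell was 46.7% in the tumour, with 10th and 90th percentiles of 25 and 66.7%. In the LN the median was 12.5% and the percentiles were 2.42 and 33.3%. A share of 50% or more was found in 44.0% of these tumour cells and in 3.72% of these LN cells. The tenth of cells with the most immunoproteasome UMIs held 37.3% of them in the tumour and 32.2% in the LN.

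Cells of the 2 libraries differed in depth, so the expected detection with each cell thinned to 5000 UMIs was also computed, which left out 728 tumour and 11 LN cancer cells that were shallower. Psmb9 was then detected in 38.4% of tumour cells (37.1 to 39.7) and in 9.41% of LN cells (7.19 to 12.1). Without thinning these values were 62.0 and 36.6%. Psmb8 was detected in 54.2% and 29.4% after thinning, although unthinned detection was slightly higher in the deeper LN cells (74.8 and 76.4%). Psmb10 was detected in 28.8 and 13.3%, and unthinned in 48.1 and 53.1%. By contrast thinned detection of Psmb5 was 46.9% in the tumour and 67.6% in the LN, and that of Psmb6 was 53.4 and 68.2%. No cell class here is known to lack the immunoproteasome genes. In LN endothelial cells, the class with the lowest levels of Psmb8 and Psmb9, thinned detection was 7.13% for Psmb8 and 6.52% for Psmb9. These were 141 cells, with 53 shallower cells left out, and the unthinned median of all 194 was 15851 UMIs. The interval of Psmb9 there (3.06 to 11.9) overlapped that of LN cancer cells. A background level was not measured, so the part of background in such low detection is not known.

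The low share belonged to 1 cluster of LN cancer cells and not to all of them. Clustering used none of the proteasome genes. Of the 606 LN cancer cells, 511 (84.3%) formed cluster 23, which held 1 tumour cell, was led by Tff2, Krt19 and Sprr1a and had a median depth of 36372 UMIs. Its immunoproteasome share was 12.2% (11.6 to 12.7), with Psmb8 at 55.5 CPM, Psmb9 at 13.8 CPM and Psmb10 at 24.4 CPM. Another 64 LN cells grouped with 1917 tumour cells in cluster 3, led by Tff1 and Foxq1. The share of these LN cells was 41.9% (39.3 to 44.6), above that of the tumour cells of this cluster at 37.7% (37.0 to 38.4).

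In cluster 3 the immunoproteasome genes were not lower in the LN. Psmb8 stood at 258 CPM (376 UMIs, 232.9 to 285.8) in LN cells and at 136 CPM (131.9 to 140.3) in tumour cells. Psmb10 stood at 64.6 CPM (94 UMIs, 52.2 to 79.0) and at 34.5 CPM (32.4 to 36.6), while the intervals of Psmb9 overlapped, at 77.6 CPM (64.0 to 93.3) and 70.7 CPM (67.8 to 73.8). Cluster 1 was the remaining cluster with at least 20 cells of each library, and in it 24 LN cells had a share of 33.8% (27.7 to 40.3) and 1660 tumour cells 43.1% (41.9 to 44.3). Of the 47 barcodes that the libraries shared, 5 were LN cancer cells, and those 5 lay in cluster 23.

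**Figure D2:**
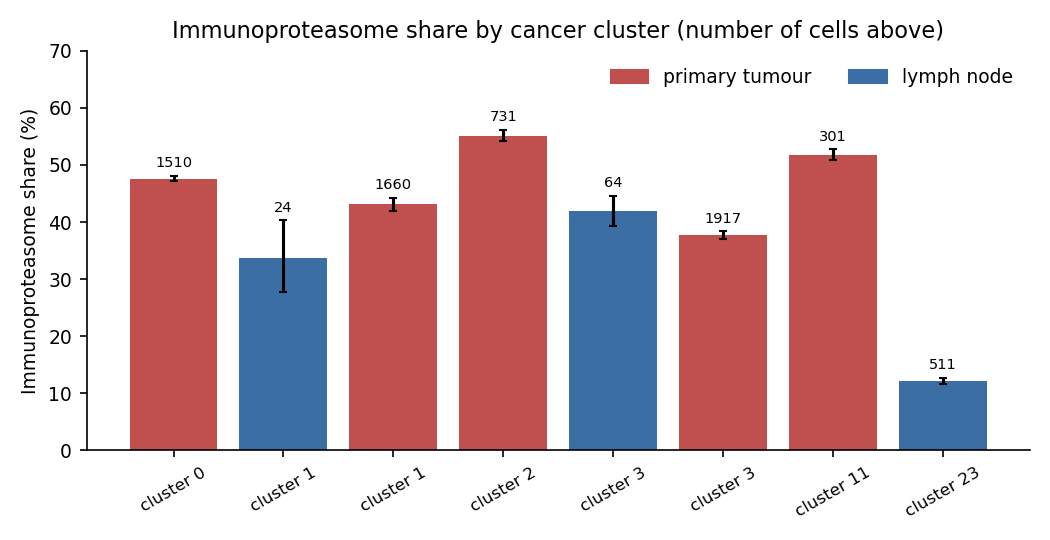
Immunoproteasome share in percent (vertical axis) in each cancer cluster with at least 20 cells of a library, primary tumour in red and LN in blue, with exact 95% binomial intervals and the number of cells above each bar. The LN cells lie below the tumour cells in cluster 1 (33.8 and 43.1%) and above them in cluster 3 (41.9 and 37.7%), and those of cluster 23 lie at 12.2%.

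Within the tumour the share also varied between clusters, from 37.7% in cluster 3 to 55.1% in cluster 2 (731 cells led by Krt18, Krt8 and Elf3). Cluster 0 (1510 cells) had 47.6%, and cluster 11 (301 cells led by Krt7 and Sprr1a) had 51.8%. The highest levels were in cluster 11, with Psmb8 at 334 CPM, Psmb9 at 206.5 CPM and Psmb10 at 212 CPM. In cluster 1, which was shallow at a median of 7420 UMIs, Psmb10 was at 24.5 CPM. The lowest of these shares was still above that of cluster 23 of the LN. Mki67, a gene of cycling cells, was at 261 CPM in cluster 0, 9.09 CPM in cluster 1, 10.2 CPM in cluster 2, 83.9 CPM in cluster 3 and 5.80 CPM in cluster 11 of the tumour, and at 139 CPM in cluster 23.

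Within a cluster the share in LN cancer cells differed little between depths. Cluster 3 had 42.7% (36.8 to 48.7, 21 cells) from 10000 to 20000 UMIs and 41.4% from 20000 to 40000, and cluster 23 had 12.5% from 20000 to 40000 and 11.5% (10.6 to 12.4, 140 cells) above. Tumour cancer cells had shares of 44.9% under 10000 UMIs, 45.3% from 10000 to 20000, 47.1% from 20000 to 40000 and 46.9% above. LN cancer cells of all clusters together, whose make-up by cluster changed with depth, had 39.8% (35.6 to 44.2, 41 cells) from 10000 to 20000 UMIs, 15.5% (400 cells) from 20000 to 40000 and 12.9% (146 cells) above. At one depth, 20000 to 40000 UMIs, the share was 12.5% (11.8 to 13.2) in the 357 LN cells of cluster 23, 41.4% (38.3 to 44.6) in the 39 LN cells of cluster 3 and 38.6% (37.5 to 39.7) in the 447 tumour cells of cluster 3. At this depth the LN cells of the 2 clusters thus differed in share, with intervals far apart. Without the limit on detected genes the LN share was 12.1%.

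Genes of leukocytes were checked in the same cells because leukocytes carry the immunoproteasome. Of 8 leukocyte genes, 6 were higher in LN than in tumour cancer cells and 2 were lower (Cd74 and Lyz2). None was at 0. Ptprc (CD45) was at 2.90 CPM in tumour and 10.9 CPM in LN cancer cells, against 999.5 CPM in LN T cells, and Cd79a of B cells was at 0.412 and 19.4 CPM against 3126 CPM in LN B cells. Summed over the list the level was 739 CPM in tumour cancer cells and 359 CPM in LN cancer cells, and Cd74 made up 718 and 280.5 CPM of these sums. LN T and B cells had immunoproteasome shares of 57.7 and 50.8%, both above that of LN cancer cells. The part of leukocyte RNA in the levels of cancer cells was not tested.

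Across the 47 members, 5 were at least 2-fold lower in LN cancer cells and 1 was at least 2-fold higher. Of all 10927 genes with enough UMIs to enter, 8.61% were at least 2-fold lower and 6.53% at least 2-fold higher. The counts of members (10.6 and 2.13%) are thus near or below those backgrounds. The 5 lower genes were the 3 immunoproteasome genes, Psme1 and Psme3, and the higher gene was the ATPase Psmc2. In cells with 10000 to 30000 UMIs 3 were lower (Psmb9, Psmb10 and Psme3) and 0 higher, with Psme1 at -0.91 and Psmc2 at 0.89 on the log2 scale, and in cluster 3 alone 1 was lower (Psme4) and 0 higher. The median log2 ratio of the members was 0.25, against -0.16 over all genes. Levels relative to that median are 0.16 higher on the log2 scale than the values given here, which puts Psmd12 past 2-fold too.

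The alpha ring kept together. Its 7 members, Psma1 to Psma7, had log2 ratios from 0.24 (Psma1) to 0.66 (Psma2), all above 0, and none was 2-fold apart. Psma7, the alpha ring gene with the most UMIs, stood at 533 CPM in tumour cancer cells and 642 CPM in LN cancer cells. The 4 beta ring genes without an interferon-induced counterpart ranged from 0.03 for Psmb4, whose interval (-0.01 to 0.06) included 0, to 0.82 for Psmb2. Psmb1 went from 263 to 377 CPM. The summed level of these 11 genes was 2384 CPM in the tumour and 3151 CPM in the LN.

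The 19S cap was less uniform. Of its 6 ATPases, Psmc2 had a log2 ratio of 1.05 (0.96 to 1.14; 36.8 CPM in the tumour and 76.3 CPM in the LN), the highest of all members, and Psmc4 had 0.65. Psmc1 and Psmc3 were lower in the LN, at -0.51 and -0.29. Of the 11 non-ATPase subunits, 7 had ratios above 0 and 4 below. Psmd12, a lid subunit, had 0.85 (95.5 and 172 CPM), Psmd8, the one with the most UMIs, 0.70 (256 and 417 CPM) and Psmd13 -0.40 (115 and 87.5 CPM). Over the 31 subunits of the 20S core and 19S cap without the immunoproteasome genes the median was 0.38, against -0.16 over all genes. Of these subunits 25 were above 0 and 27 above the median of all genes, while the share of all genes above 0 was not counted.

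All 4 activator genes were lower in LN cancer cells. Psme1 (PA28 alpha) stood at 217 CPM (214.0 to 219.9) in the tumour and 93.9 CPM (89.7 to 98.2) in the LN, and Psme2 (PA28 beta) at 165 CPM (162.5 to 167.6) and 102 CPM (97.5 to 106.3). Psme3, which encodes the nuclear PA28 gamma and is not known as an interferon gene, stood at 75.9 CPM (74.1 to 77.6) and 32.7 CPM (30.3 to 35.3). Psme4 (PA200) stood at 63.9 CPM and 34.5 CPM. Their log2 ratios were -1.21, -0.70, -1.21 and -0.89. In cluster 3 alone the ratio of Psme1 was 0.34 and that of Psme2 was 0.67, while that of Psme3 was -0.97 (45 LN UMIs) and that of Psme4 was -1.11 (43 LN UMIs), the one member there that was 2-fold lower. The inhibitor Psmf1 did not differ, at 34.3 and 34.1 CPM (log2 ratio -0.01, -0.13 to 0.11).

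The assembly factors differed in direction. Among the chaperones of the 19S base, Psmd5 had -0.43, Psmd9 0.04 and Psmd10 0.33. Among those of the 20S core, Psmg1 had 0.22, Psmg2 0.42, Psmg3 -0.23 and Psmg4 -0.54 (140 and 96.4 CPM). Psmc3ip, which is no subunit, had 0.33 at 12.3 and 15.5 CPM.

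**Figure D3:**
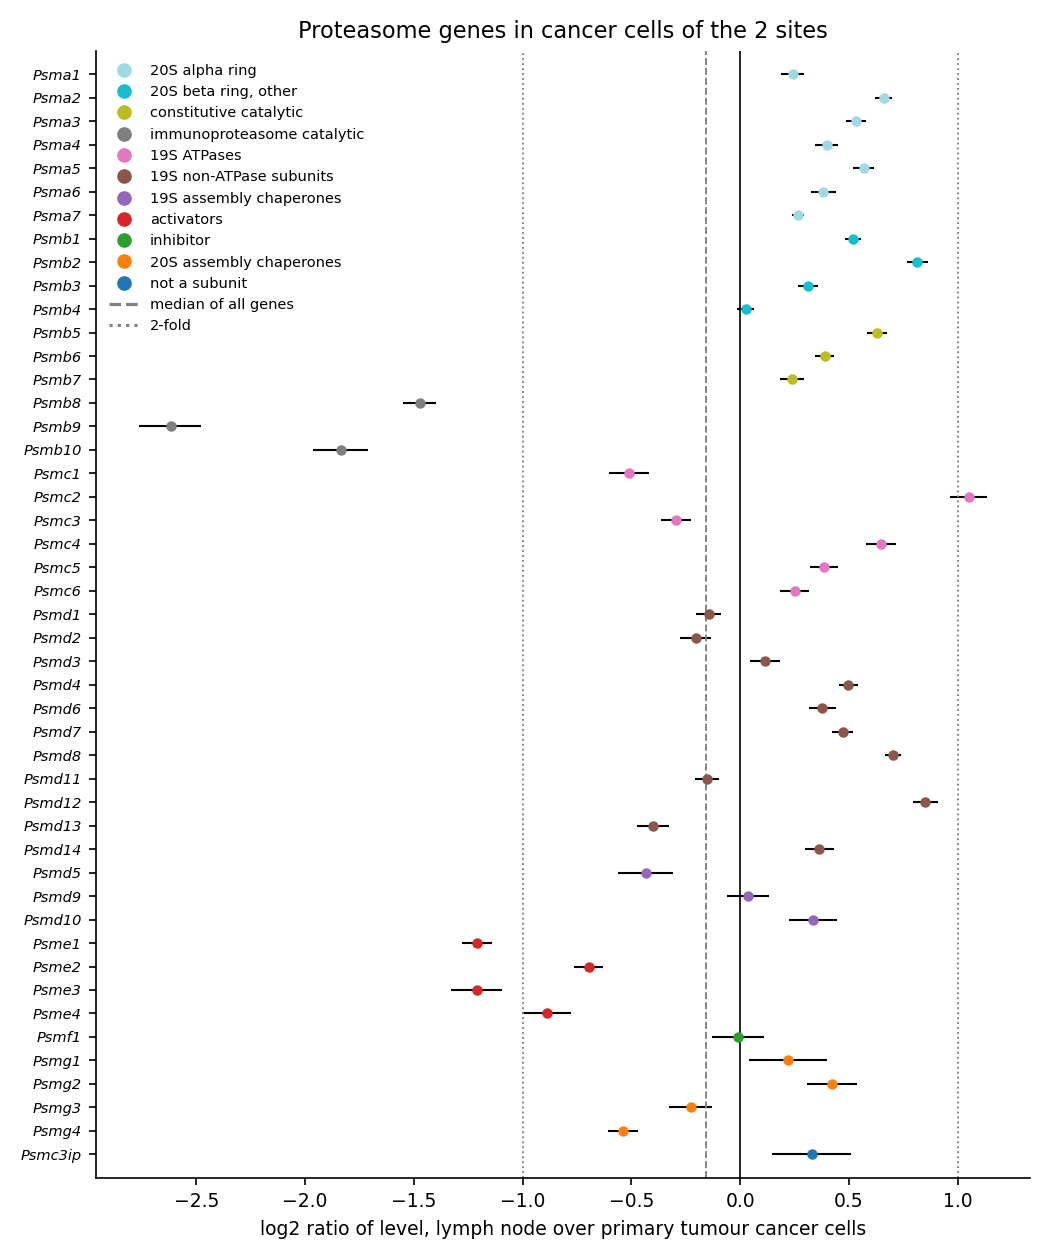
log2 ratio of the level in LN over primary tumour cancer cells (horizontal axis) for each of the 47 members (rows, coloured by role), with exact 95% intervals for counting error. The dashed line is the median of all 10927 genes (-0.16) and dotted lines mark 2-fold; Psmb8, Psmb9, Psmb10, Psme1 and Psme3 lie left of the lower dotted line and Psmc2 right of the upper one.

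Other genes of protein degradation did not share 1 direction. Of 19 listed genes that assemble, regulate or feed the proteasome, 18 had enough UMIs to be given, 2 were at least 2-fold lower in LN cancer cells and 1 at least 2-fold higher (11.1 and 5.56%, near the 8.61 and 6.53% of all genes), with a median log2 ratio of -0.13. The ubiquitin gene Ubb stood at 250 CPM in the tumour and 703.5 CPM in the LN (1.49), and it was higher in the LN library in T cells (2.35), dendritic cells (2.42) and endothelial cells (2.08) as well. Nfe2l1, the transcription factor of proteasome genes known for the response to proteasome inhibition, was at 124 CPM in the tumour and 60.6 CPM in the LN (-1.03), and Ubqln4, a ubiquitin shuttle, had -1.18. Pomp, the maturation factor that is also needed for immunoproteasome assembly, had -0.41 (738 and 555 CPM).

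Of 13 listed genes of the class I peptide pathway, which receives the products of the proteasome, 9 were at least 2-fold lower in LN cancer cells, 1 was at least 2-fold higher (69.2 and 7.69%, against 8.61 and 6.53% of all genes), and the median log2 ratio was -1.51, against -0.16 over all genes. Tap1, the peptide transporter gene that faces Psmb9, stood at 109 CPM (10602 UMIs) in the tumour and 19.3 CPM (393 UMIs) in the LN, a ratio of -2.50 beside -2.62 for Psmb9. Tapbp (tapasin) had -2.24 and Erap1, the trimming peptidase, -1.51. Of the regulators of these genes, Nlrc5 had -1.84 and Irf1 -1.31. The heavy chain gene H2-D1 had -0.11, and H2-K1, which was low in both, stood at 8.49 CPM in the tumour and 36.04 CPM in the LN (2.09). In cluster 3 Tap1 was at 65.9 CPM in LN cells and 80.8 CPM in tumour cells, and in cluster 23 it was at 14.1 CPM. The list and the members were chosen with earlier results of these data known.

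Across all classes with at least 20 cells, the immunoproteasome share ran from 7.98 to 82.3%. Dendritic cells had the highest, 82.3% in the tumour (32 cells, 76.9 to 86.8) and 77.7% in the LN (143 cells, 75.8 to 79.5), and these intervals overlapped. Tumour T cells followed with 69.6% (66.8 to 72.2), LN plasmacytoid dendritic cells with 66.3% (61.8 to 70.6) and tumour NK cells with 62.5%, whose interval (45.8 to 77.3, 29 cells) is wide. LN plasma cells (59.2%), LN T cells (57.7%) and LN NK cells (55.1%) had overlapping intervals, as did LN B cells (50.8%), LN monocytes (50.5%) and tumour monocytes (48.7%). Tumour cancer cells (46.4%) overlapped with tumour macrophages (45.7%), neutrophils (44.0%) and endothelial cells (43.7%). Tumour fibroblasts had 40.9%. Epithelial markers of cancer cells summed to 2063 CPM in tumour neutrophils, 1123 CPM in tumour fibroblasts, 927 CPM in tumour endothelial cells and 320 CPM in tumour macrophages, against 4548 CPM in tumour cancer cells and 50.04 to 129.9 CPM in the LN classes other than cancer cells. The part of cancer RNA in the shares of these tumour classes was not tested.

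LN cancer cells (15.4%) and LN endothelial cells (7.98%, 7.15 to 8.88) stood apart from the other 17 groups and from each other. The next higher estimate, 38.7% in 39 LN neutrophils, rested on 31 UMIs (21.9 to 57.8). Tumour cancer cells had a share in the range of tumour macrophages, and LN cancer cells one below that of each leukocyte class of the LN.

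**Figure D4:**
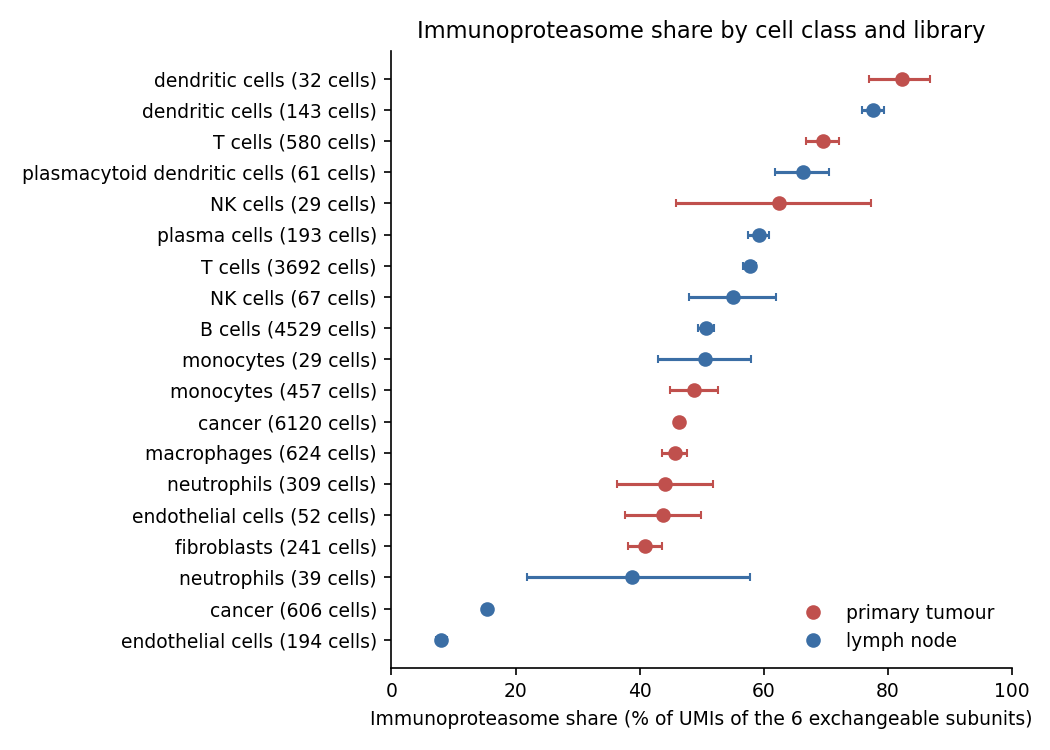
Immunoproteasome share (horizontal axis, percent of the UMIs of Psmb5 to Psmb10) in each cell class with at least 20 cells, primary tumour in red and LN in blue, with exact 95% binomial intervals. LN cancer and LN endothelial cells lie at 15.4 and 7.98%, and the other 17 groups lie between 38.7 and 82.3%.

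Dendritic cells also led in the levels of the interferon-inducible members. Psmb8 was at 1184 CPM in LN and 898 CPM in tumour dendritic cells, followed by 664 CPM in LN plasmacytoid dendritic cells and 636 CPM in LN plasma cells, and it was lowest in LN endothelial cells at 16.3 CPM. Psmb9 was at 471.5 and 431 CPM in LN and tumour dendritic cells, at 216 CPM in tumour T cells and again lowest in LN endothelial cells at 15.5 CPM. Psme1 was at 1212 and 1307 CPM and Psme2 at 917 and 819 CPM in the same dendritic cells, and both PA28 genes were at or near their lowest in LN cancer cells (93.9 and 102 CPM) and in neutrophils. Psmb10 was spread more evenly, from 217 CPM in LN dendritic cells to 18.95 CPM in tumour neutrophils, which rested on 7 UMIs.

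Of the 47 members, 25 had their highest level in LN endothelial cells, 6 in LN dendritic cells, 5 in LN cancer cells and 4 in tumour cancer cells, and the other 7 in 4 further groups. The same count over all genes was not made, so these counts do not set the members apart from other genes. Of the constitutive catalytic genes, Psmb5 and Psmb6 were highest in LN endothelial cells and Psmb7 in LN dendritic cells (182 CPM, against 175 CPM, with an interval up to 189, in LN endothelial cells). Psmb5 was at 419 CPM in LN endothelial cells, 246 CPM in LN cancer cells and 62.5 CPM, on 5 UMIs, in tumour NK cells. All members together made up 0.890% of the UMIs of LN endothelial cells, 0.930% of those of LN dendritic cells, 0.704% in LN cancer cells, 0.625% in tumour cancer cells and 0.219% in LN neutrophils. The 11 alpha and beta genes without exchangeable partners summed to 3503 CPM in LN endothelial and 3151 CPM in LN cancer cells, the classes with the lowest shares, against 2785 CPM in LN dendritic cells and 1944 CPM in LN T cells.

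In endothelial cells Psmb8 and Psmb9 were lower in the LN too. Psmb8 was at 134 CPM (54 UMIs) in 52 tumour endothelial cells and 16.3 CPM (62 UMIs) in 194 LN endothelial cells, a log2 ratio of -3.04 (-3.59 to -2.49). Psmb9 had -2.49 (-3.11 to -1.84), from 86.7 to 15.5 CPM. Psmb10 had -0.40 with an interval (-0.97 to 0.27) that included 0. Psmb5, Psmb6 and Psmb7 were higher in the LN, at 1.74, 1.38 and 0.64. Psme1 and Psme2, lower in LN cancer cells, were higher in LN endothelial cells, at 0.60 (0.29 to 0.95) and 0.57 (0.15 to 1.04). In endothelial cells under 10000 UMIs (37 of the tumour and 81 of the LN) the difference in Psmb8 was smaller, at 116.9 and 37.35 CPM. Psmb9 was at 92.27 and 18.67 CPM there. The share in these shallow cells was 46.1% (36.2 to 56.2) in the tumour and 12.8% (9.10 to 17.2) in the LN. In the 26 LN endothelial cells with 40000 UMIs or more the share was 5.74%.

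Of 39 members with enough UMIs in endothelial cells, 4 were at least 2-fold lower in the LN (10.3%, against 27.6% of 3246 genes) and 12 at least 2-fold higher (30.8%, against 16.7%). Psmc2 was the highest, at 3.51 (2.66 to 4.72), from 22.3 CPM on 9 UMIs to 269 CPM. The endothelial cells lay in different clusters: 190 of 194 LN cells in cluster 21, led by Glycam1 and Fut7, which are known from high endothelial venules, and 51 of 52 tumour cells in cluster 10, led by Fabp4 and Igfbp3. In the LN 31 of these cells had none of 8 endothelial markers and 37 had 1. In the 126 with 2 or more the share was 8.14% (7.27 to 9.08), at a median depth of 29656 UMIs against 6230 in the tumour. Ptprc was at 17.8 CPM in LN and 4.96 CPM in tumour endothelial cells. The 8 epithelial markers summed to 927 CPM in tumour endothelial cells, with 7 of 8 detected, and to 122 CPM in LN endothelial cells, with 7 of 8 detected. They thus moved with the immunoproteasome genes, and their part in this difference was not tested.

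In T cells 1 of the 3 immunoproteasome genes differed by 2-fold or more. Psmb9 was at 216 CPM (268 UMIs) in tumour and 69.2 CPM (882 UMIs) in LN T cells, a log2 ratio of -1.64 (-1.84 to -1.44). Psmb8 had -0.31 (349 and 283 CPM) and Psmb10 0.00 (67.6 and 67.8 CPM). Different clusters held most T cells of the 2 sites: cluster 4, led by Nkg7, held 511 of 580 in the tumour, and clusters 17 and 19 held 1253 and 1670 of 3692 in the LN. In clusters with cells of both sites the intervals of Psmb9 overlapped, at 225 CPM (197.9 to 255.3) in the tumour and 205.5 CPM (119.7 to 329.1, 25 cells) in the LN in cluster 4, and at 160 CPM (97.7 to 246.9, 49 cells) and 162 CPM (145.7 to 178.9) in cluster 9, led by Ikzf2 and Ctla4. Psmb8 was higher in the LN in cluster 9, at 232 CPM (155.2 to 332.9) in the tumour and 549.5 CPM (519.7 to 580.7) in the LN. Of 45 members given in T cells, 5 were at least 2-fold lower in the LN (11.1%, against 23.4% of 6231 genes) and 1 at least 2-fold higher (2.22%, against 4.72%).

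In dendritic cells none of the 3 genes was lower in the LN. Psmb8 had 0.39 (0.13 to 0.68), Psmb9 0.12 (-0.27 to 0.55) and Psmb10 0.63 (-0.02 to 1.43), with 32 tumour cells behind them. Cluster 5 was split by further clustering. Its part 5.0, led by Ccl22 and Fscn1, held 30 of 32 tumour and 80 of 143 LN dendritic cells. The shares of these cells were 83.5% (78.0 to 88.0) and 80.6% (78.0 to 83.0). Other LN dendritic cells lay in parts 5.2 (42 cells) and 5.4 (21 cells). Of 19 members with enough UMIs, 0 were at least 2-fold lower (against 13.7% of 931 genes) and 0 at least 2-fold higher (against 6.66%).

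The comparisons of the cell classes all use the same pair of libraries, so the values of the constitutive catalytic genes are set side by side. Psmb5 had 0.63 in cancer cells and 0.47 (0.20 to 0.78) in T cells, Psmb6 had 0.39 and 0.20 (-0.05 to 0.47), and Psmb7 had 0.24 and -0.39 (-0.69 to -0.08). A difference between libraries and one between sites cannot be told apart for these genes.

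**Figure D5:**
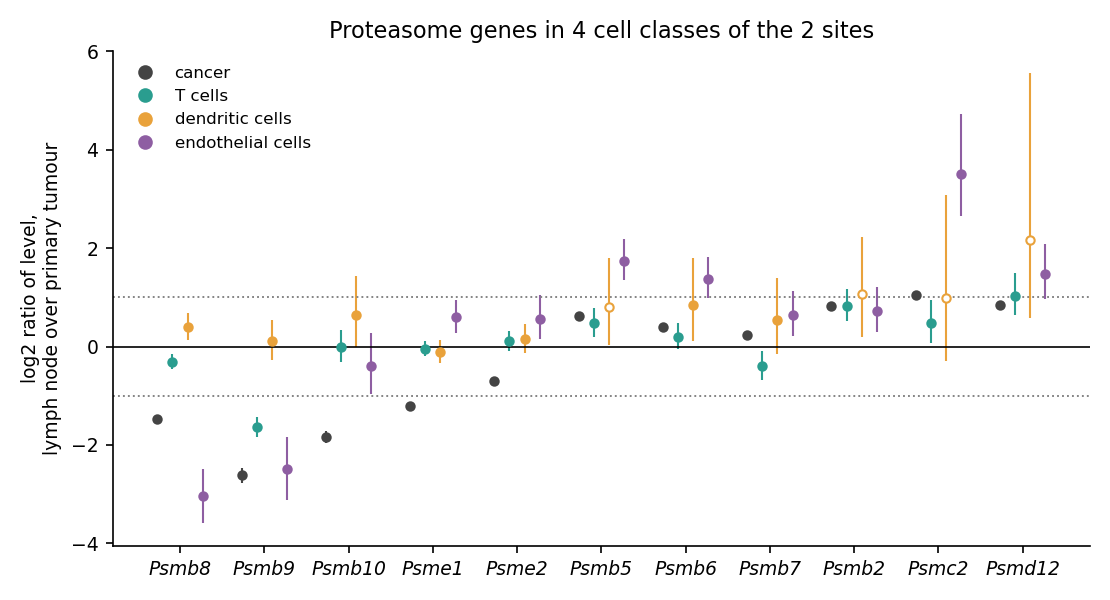
log2 ratio of the level in LN over primary tumour (vertical axis) for 11 members in cancer, T, dendritic and endothelial cells, with exact 95% intervals; open points had too few UMIs to enter, and dotted lines mark 2-fold. Psmb8 and Psmb9 lie past the lower dotted line in cancer and endothelial cells, as do Psmb9 in T cells and Psmb10 and Psme1 in cancer cells. Psmb5 and Psmb6 lie above 0 in each of the 4 classes and Psmb7 lies below 0 in T cells. Psmb2, Psmc2 and Psmd12 were chosen after their values were seen.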

How the data were processed

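The authors deposited 1 matrix per library of raw UMI counts per gene and cell, whole numbers that were not normalised. Per the file headers these counts were made with Cell Ranger 5.0.0, while the submitters' processing notes name Cell Ranger 2.1.1 and GRCm38. No deposited file assigns cells to mice or cell types. As in the study, cells were kept that had more than 200 genes, no more than 6000 genes and no more than 5% of UMIs from mitochondria, and 391 tumour and 616 LN doublets were removed (Scrublet in scanpy 1.11.5, expected rate 6%; the automatic threshold marked too few LN cells, so the top 6% by score were taken there). Both libraries were clustered together without the proteasome genes (2000 variable genes per library, 30 components, 15 neighbours, Leiden resolution 1.0, igraph 0.11.9, Seurat 5.3.0 cell cycle genes). Clusters were named from fixed markers by a rule set after seeing the data, and 296 tumour and 114 LN cells stayed unnamed.

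UMIs were summed per class. Ratios had 0.5 added to each count, and a gene entered when worth at least 20 UMIs at the shallower depth. Intervals (scipy 1.17.1) were exact at 95% and cover counting error only. Calculations were tested on simulated data. The named genes were Psmb5 to Psmb10, Psme1, Psme2, the 5 highest and 5 lowest members by ratio, and the member of each role with the most UMIs. The members, lists and tests were chosen with earlier results of these data known. Alternatives were the cell limits, doublets, clustering, a keratin gate, depth, averaging and scaling.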

Additional observations from a re-analysis of the deposited data

Results flagged for a closer look

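Psme1 was 2-fold or more lower in LN cancer cells (log2 ratio -1.21) but higher in LN endothelial cells (0.60, 83 tumour and 1193 LN UMIs). Psmb8 was lower in LN cancer cells (-1.47) and higher in LN dendritic cells (0.39, 125 tumour and 1004 LN UMIs). In both cases the 2 cell classes moved in opposite directions between the same 2 libraries, with intervals that excluded 0. In cancer cells of cluster 3 alone Psme1 was at 0.34 and Psmb8 at 0.93, the direction of the other class, and in cancer cells with 10000 to 30000 UMIs they were at -0.91 and -0.62, under 2-fold. The difference between the classes was not tested, since each site has 1 library.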

How the results depend on the processing

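No paired analysis was possible because each site has 1 library. The share in LN cancer cells was 12.1% without the gene limit, 24.3% in cells with 10000 to 30000 UMIs (176 cells), 16.4% as a mean of single cells and 41.9% in cluster 3 alone, an alternative chosen after seeing the data (64 cells). The share in tumour cancer cells was 45.7% with each library clustered on its own, 42.9% as a mean of single cells and 37.7% in cluster 3. The count of members at least 2-fold lower, 5, was 6 without the gene limit, where Psme2 joined at -1.02, 3 at 10000 to 30000 UMIs and 1 in cluster 3, which was Psme4. The count at least 2-fold higher, 1, was 0 at 10000 to 30000 UMIs, 0 in cluster 3, 2 for ratios less the median of all genes and 3 as a mean of single cells. The median log2 ratio, 0.25, was 0.13 at 10000 to 30000 UMIs, 0.45 in cluster 3, 0.41 less the median of all genes and 0.39 as a mean of single cells. Of the members that were 2-fold or more apart, 4 changed sign in cluster 3, to 0.93 for Psmb8, 0.14 for Psmb9, 0.91 for Psmb10 and 0.34 for Psme1. Of 210 recomputed ratios of 21 named members, beside these 4, 105 stayed within the counting interval and 101 moved beyond it. Named members under 2-fold apart also changed sign, in cluster 3 Psme2 (0.67), Psmc3 (0.17), Psmg4 (0.15) and Psmf1 (0.23), and at 10000 to 30000 UMIs Psmc3ip (-0.17) and Psmd9; the sign of Psmf1, close to 0, also turned under 4 other settings. At 10000 to 30000 UMIs Psmb8 (-0.62), Psme1 (-0.91) and Psmc2 (0.89) were under 2-fold apart. The other settings, a mitochondrial limit of 10%, doublets kept, resolution 2.0 and a keratin gate, kept the shares between 14.9 and 15.7% in LN and 46.3 and 46.6% in tumour cancer cells. Why these values moved was not tested. Precision is limited by 1 pooled library per site, and in dendritic and tumour endothelial cells by 32 and 52 cells.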
